A study of Mus musculus with 298 samples.

Results

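The nuclear-encoded respiratory chain genes are the genes of the cell nucleus whose protein products make up, or are named after, the 4 respiratory complexes and the ATP synthase of the mitochondrial inner membrane. They were taken by a rule on names that uses no measured value: every row called Nduf*, Sdha, Sdhb, Sdhc, Sdhd, Uqcr*, Cyc1, Cox4* to Cox8* or Atp5*. This gave 90 of the 16892 genes in the table. By role they comprised 35 subunit genes of complex I, 4 of complex II, 9 of complex III, 17 of complex IV and 15 of complex V. The other 10 share the name pattern without being subunits: the complex I assembly factors Ndufaf1 to Ndufaf7, the supercomplex factor Cox7a2l, and Atp5s and Atp5sl. Ndufa4 and Ndufa4l2 were grouped with complex IV, where the Ndufa4 protein is now placed.

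The 298 cells came from thoracic sympathetic ganglia, the chains of peripheral neurons beside the spine that drive blood vessels, sweat glands and viscera. All mice carried Wnt1-Cre, which switches on Cre in the neural crest lineage, together with the R26R-Tomato reporter; no other genotype or treatment was compared. Ganglia were dissociated with enzymes, living cells were caught on microfluidic chips, and polyA RNA was read out. The 10 collections, each 1 sex at 1 postnatal age, ran from P11 to P38, with 207 cells of 7 female and 91 cells of 3 male collections. The submitters' cell type names were 5 noradrenergic groups of 193 cells (Noradrenergic1 with 10, Noradrenergic2 with 39, Noradrenergic4 with 18, Noradrenergic5 with 23, and Noradrenergic3 with the rest), the cholinergic Ach1 and Ach2 with 8 cells each, and Glutamatergic with 4 cells. The remaining 85 cells were Unclassified and entered no comparison. The labels name no animals, so a collection is the replicate, and no p-value measures the spread between animals. In the cell type tests a p-value rests on the spread left between sums per cell type and collection after collection differences are removed. That spread is estimated from all named groups together, so a group of few cells relies on the others. In the sex test it is the spread between collections.

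Electrons from food enter the chain at complex I, which oxidises NADH, or at complex II, which oxidises succinate and is also an enzyme of the citric acid cycle. Complex III passes them to cytochrome c, complex IV passes them to oxygen, and the proton gradient built on the way drives complex V to make ATP. Neurons depend on this ATP for ion pumping and transmitter release. The core subunits that mitochondrial DNA encodes have no row in the count table, and neither have Cox8b and Cox8c, so none of them could be analysed.

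Depth was 7225 to 81589 counts per cell with a median of 33099, over 24 chips. The names fitted their defining genes: Slc17a6, the glutamate transporter of vesicles, was counted in 4 of 4 Glutamatergic cells and in 0 cells of the other named groups. Slc18a3, the vesicular acetylcholine transporter, was counted in 7 of 8 Ach1 and 8 of 8 Ach2 cells, and Chat, which makes acetylcholine, in 6 of 8 and 5 of 8. Dbh, which makes noradrenaline, was counted in every noradrenergic cell. It was also counted in 8 of 8 Ach1, 8 of 8 Ach2 and 3 of 4 Glutamatergic cells, so its detection alone does not mark the noradrenergic groups. Its level was lower there, with log2 fold changes against the noradrenergic mean of -1.49 (cholinergic) and -1.89 (Glutamatergic). The 5 cells labelled P16 female had no Xist count, while 5 of 5 had counts of the Y-linked Ddx3y and Eif2s3y, against their label. The Y-linked Uty was counted in 1 of the 5 and Kdm5d in 0. No 2 cells had identical counts. Labels describe a visual check of each capture site, and no doublet caller was run.

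Promoter sequences are shown for the 4 genes that passed a test below, to let a reader compare them, and for Sdhd, the membrane anchor of succinate dehydrogenase, because its window holds more of the motifs searched than any other member. Each window runs from 250 bases before to 50 after the start that RefSeq gives on GRCm38.p6, which can differ from the gene ends given below from the GENCODE annotation, read 5′ to 3′ on the gene's own strand, with motif matches in capitals. The windows lie at chr9:50603800-50604099 (minus strand) for Sdhd, chr13:30545267-30545566 (minus) for Uqcrfs1, chr6:126849095-126849394 (minus) for Ndufa9, chr6:39592315-39592614 (plus) for Ndufb2 and chr7:30183921-30184220 (plus) for Cox7a1.
Sdhd: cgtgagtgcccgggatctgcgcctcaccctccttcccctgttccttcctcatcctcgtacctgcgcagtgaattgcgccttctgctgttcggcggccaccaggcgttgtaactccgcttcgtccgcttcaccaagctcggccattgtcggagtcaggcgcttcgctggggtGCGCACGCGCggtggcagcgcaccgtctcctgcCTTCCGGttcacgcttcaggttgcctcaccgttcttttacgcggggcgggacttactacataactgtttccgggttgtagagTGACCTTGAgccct
Uqcrfs1: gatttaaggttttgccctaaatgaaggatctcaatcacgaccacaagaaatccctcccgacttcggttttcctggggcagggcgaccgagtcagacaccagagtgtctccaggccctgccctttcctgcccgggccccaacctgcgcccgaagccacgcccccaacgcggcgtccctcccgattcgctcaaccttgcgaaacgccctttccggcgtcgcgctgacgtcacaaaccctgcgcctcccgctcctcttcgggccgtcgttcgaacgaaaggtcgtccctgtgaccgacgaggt
Ndufa9: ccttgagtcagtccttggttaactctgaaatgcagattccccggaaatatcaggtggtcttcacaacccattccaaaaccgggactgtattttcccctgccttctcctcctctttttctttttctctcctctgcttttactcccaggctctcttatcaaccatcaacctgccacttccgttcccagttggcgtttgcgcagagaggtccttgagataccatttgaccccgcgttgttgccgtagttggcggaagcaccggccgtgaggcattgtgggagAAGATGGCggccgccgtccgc
Ndufb2: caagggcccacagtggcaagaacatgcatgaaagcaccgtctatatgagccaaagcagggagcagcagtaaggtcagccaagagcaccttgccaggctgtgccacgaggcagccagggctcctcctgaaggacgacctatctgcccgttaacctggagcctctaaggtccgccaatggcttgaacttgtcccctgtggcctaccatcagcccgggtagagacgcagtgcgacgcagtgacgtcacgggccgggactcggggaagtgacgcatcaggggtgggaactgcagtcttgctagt
Cox7a1: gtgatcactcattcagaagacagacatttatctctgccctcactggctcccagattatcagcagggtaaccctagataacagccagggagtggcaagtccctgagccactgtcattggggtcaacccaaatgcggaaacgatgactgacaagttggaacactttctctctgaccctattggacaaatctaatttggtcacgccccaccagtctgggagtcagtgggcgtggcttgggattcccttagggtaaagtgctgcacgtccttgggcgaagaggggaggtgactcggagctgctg
In Sdhd an NRF1 match starts 79 bases before the RefSeq start, an ETS match 46 before, and an ERR match 37 after it. In Ndufa9 a YY1 match lies 30 bases after the start. The windows of Uqcrfs1, Ndufb2 and Cox7a1 held none of these letters.

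The motifs searched, on both strands, were GCGC, any base and then TGCGC for NRF1, CCGGAAG for the ETS factors that include GABP, AAGATGGC for YY1, TCAAGGTCA for the oestrogen-related receptors (ERR), and TATAAA for the TATA box. NRF1, GABP, YY1 and ERR are factors known to regulate genes of mitochondrial respiration. A window was found for 74 of the 90 genes. NRF1 letters stood in 18 of the 74 (24.3%), against 12% of 8824 other genes with at least 20 counts and 5.19% of all 27025 genes with a window. ETS letters stood in 17 (23%), against 20.3% and 9.93%. YY1 letters stood in 11 (14.9%), against 5.46% and 3.19%. They were in 7 of 31 complex I windows, 3 of 14 complex V windows and 1 of 9 windows of genes that are not subunits. ERR letters stood in Atp5g3 and Sdhd only (2.7%), against 0.283% and 0.466%, and TATA letters in 6 (8.11%), against 8.45% and 15.7%. NRF1 letters were in 6 of 14 complex V windows and 1 of 12 complex IV windows. These are letter matches and not measured binding.

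All 90 genes had a count in at least 1 cell. A median of 82 of them was counted per Noradrenergic3 cell (range 77 to 85) and a median of 79 to 82 in each of the 8 named groups. When each cell was thinned to 10000 counts, leaving out 4 shallower cells (1 Noradrenergic5 and 3 Unclassified), the medians were 70.5 in Glutamatergic and 73 to 75 in the others. The members absent from the tests for want of counts were Cox4i2, Cox6a2, Cox6b2, Cox7b2 and Ndufa4l2. The other 85 reached 20 counts and were seen in 3 or more libraries, a library being the summed cells of 1 group in 1 collection.

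As a summed level, in counts per 10000 counts of the pooled cells, the 90 genes made up 397 ± 42.2 in Noradrenergic3 (SD, n = 7 collections), 399 ± 23.8 in Noradrenergic2 (n = 7), 378 ± 56.2 in Noradrenergic1 (n = 5) and 437 ± 60.5 in Noradrenergic5 (n = 6). Noradrenergic4 stood at 339 ± 76.5 (n = 5) and Glutamatergic at 349 ± 52 (n = 3). Each collection weighs the same in these means, whatever its number of cells. By single cells the median was 379 in Noradrenergic4 and 379 in Noradrenergic3, so the lower mean of Noradrenergic4 is not seen in its median cell. Ach2 had the highest mean, 447 ± 69.3 (n = 4), and Ach1 the widest spread, 387 ± 186 (n = 7). In order the means ran Noradrenergic4, Glutamatergic, Noradrenergic1, Ach1, Noradrenergic3, Noradrenergic2, Noradrenergic5 and Ach2, and no step between neighbours exceeded the larger of their SDs. The Ach1 collections were at 75.4 (P30 male), 226 (P30 female), 343 (P29 male), 414 (P16 female), 536 (P38 male), 540 (P31 female) and 574 (P33 female), mostly 1 cell each. The plot of levels by cell type shows each collection.

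By complex, complex I stood at 133 ± 13.7 in Noradrenergic3 (n = 7), 111 ± 29.2 in Noradrenergic4 (n = 5), 143 ± 22.6 in Ach2 (n = 4) and 116 ± 10.0 in Glutamatergic (n = 3). Complex II was 13 ± 1.25 in Noradrenergic3 and 11.9 ± 2.86 in Noradrenergic4. Complex III was 34.7 ± 4.00 and 30.9 ± 6.02 in those groups, and 40.0 ± 8.97 in Noradrenergic5 (n = 6). Complex IV was 100.6 ± 12.6 in Noradrenergic3, 83 ± 20.9 in Noradrenergic4, 117 ± 20.4 in Noradrenergic5 and 121 ± 21.2 in Ach2. Complex V was 107 ± 11, 94.4 ± 18.8, 120 ± 15.4 and 123 ± 15.7 in the same order. The genes that are not subunits made up 7.22 to 9.24 in every named group.

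Within complex I, the most counted members were the accessory subunits Ndufb4 and Ndufa5 and the flavoprotein-arm subunit Ndufv3. Ndufb4 stood at 7.32 ± 1.04 in Noradrenergic3 (n = 7) and 4.15 ± 2.24 in Noradrenergic4 (n = 5), and Ndufv3 at 6.30 ± 1.03 and 6.24 ± 1.45. Ndufa5 was 5.81 ± 0.924 in Noradrenergic3 and 4.16 ± 1.63 in Noradrenergic5 (n = 6). In the pairs given, the means of Ndufb4 and, by a small margin, of Ndufa5 lie further apart than either SD, and those of Ndufv3 do not.

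In complex II the catalytic flavoprotein Sdha had 4294 counts over all cells, the iron-sulfur protein Sdhb 5247, and the membrane anchors Sdhc and Sdhd 1339 and 2357. Sdhb ran from 4.58 ± 1.97 in Glutamatergic (n = 3) to 5.97 ± 3.34 in Ach1 (n = 7), and Sdhd from 2.04 ± 0.404 in Noradrenergic4 (n = 5) to 3.09 ± 0.836 in Noradrenergic5 (n = 6). No member of complex II passed a test in any comparison. For complex III, Uqcrh, the hinge protein, was 8.25 ± 1.41 in Noradrenergic3 (n = 7), and the small subunits Uqcrq and Uqcr10 were 6.32 ± 2.09 and 5.33 ± 0.494 there.

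In complex IV, Cox7c was 13.5 ± 1.70 in Noradrenergic3 and 17.2 ± 4.63 in Ach2 (n = 4), Ndufa4 13.2 ± 1.14 and 14.5 ± 0.412, and Cox6b1 13.2 ± 2.07 and 13.8 ± 3.46. In complex V the catalytic beta subunit Atp5b was 12.7 ± 1.21 in Noradrenergic3 and 10.2 ± 3.48 in Glutamatergic (n = 3), the ring subunit gene Atp5g3 13.2 ± 2.97 and 10.3 ± 3.11, and the epsilon subunit Atp5e 9.10 ± 1.24 and 5.39 ± 1.43. Of these pairs, Atp5e and, by a small margin, Ndufa4 have means further apart than either SD; neither passed a test.

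Where complex IV and complex V have paired genes, counts sat mostly on the widely expressed copy in every group. Cox4i1 had 12019 counts in all 298 cells and Cox4i2, a copy known from lung and from low oxygen, 6 counts in 4 cells. Cox6a1 had 6459 counts in 298 cells and Cox6a2, the heart and muscle form, 5 counts in 3 cells. Cox6b1 had 12558 counts in 298 cells against 16 counts in 15 cells for Cox6b2, known from testis. Ndufa4 had 12618 counts in 298 cells and Ndufa4l2, a gene induced by low oxygen, 19 counts in 11 cells, of which 10 counts lay in 2 of the 10 Noradrenergic1 cells. Cox7b2 had 1 count. Counts are not per length, so they rank no gene of a pair by transcript number.

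Among the 3 genes of the ATP synthase c ring, which encode the same mature protein, Atp5g3 had 12095 counts in 298 cells, Atp5g1 4837 in 295 and Atp5g2 1675 in 290. Cox7a2 had 10803 counts in 297 cells, Cox7a2l 4210 in 295 and Cox7a1, the heart and muscle form, 79 in 63. A low-count gene can look absent from a cell at this depth without being so.

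Cholinergic neurons were first set against noradrenergic ones, as the mean of Ach1 and Ach2 against the mean of the 5 noradrenergic groups with the collection as a block. Of the 85 genes, 1 rose (Cox7a1) and 1 fell (Uqcrfs1), where 4.57% of the 11555 genes tested passed (2.17% higher and 2.4% lower). The members' share, 2 of 85, did not exceed that background, and the number called changed with the settings, as given at the end. Their median log2 fold change was 0.04 beside -0.20 over all genes; the members' median was -0.02 with voom and -0.08 without the P31 female collection, so it has no fixed sign. By complex the medians were 0.04 in I, 0.03 in II, -0.01 in III, 0.05 in IV and 0.07 in V.

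Uqcrfs1 encodes the Rieske iron-sulfur protein, the catalytic subunit of complex III that takes electrons from ubiquinol, and lies at chr13:30540308-30545362. Its level in cholinergic cells was 0.729 at P16 female, 1.14 at P29 male, 1.30 at P30 female, 0 at P30 male, 0.884 at P31 female, 2.12 at P33 female and 1.67 at P38 male. Noradrenergic cells of the same collections stood at 2.78, 2.33, 2.31, 1.99, 1.66, 2.08 and 2.19. The cholinergic value was lower in 6 of 7 collections, the exception being P33 female. The P30 male value is 0 of the 13927 counts of 1 cell, which allows a level of up to 2.15.

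Over collections Uqcrfs1 was 1.12 ± 0.683 in cholinergic (n = 7) and 2.43 ± 0.627 in noradrenergic cells (n = 10). The log2 fold change was -1.06 (SE 0.24, edgeR quasi-likelihood adjusted p = 0.000472). Ach1 was 1.02 ± 0.765 (n = 7) and Ach2 1.36 ± 0.568 (n = 4), both below the noradrenergic means of 2.19 to 3.66. It was counted in 14 of 16 cholinergic cells with 65 counts and in 190 of 193 noradrenergic cells with 1519. The call was lost when libraries of 1 cell were left out (-0.75, adjusted p = 0.259) and when cells were thinned (-0.75, adjusted p = 0.310).

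Cox7a1 lies at chr7:30184144-30186078. Its cholinergic levels were 0.291, 0.162, 0.186, 0, 0.196, 0 and 0.837 in the order of collections above, against 0, 0.0761, 0.0513, 0, 0.0514, 0.130 and 0.0376 in noradrenergic cells. It was higher in 5 of 7 collections and lower in 1, and P38 male stood apart at the top. The cholinergic zeros allow up to 2.15 at P30 male and 0.908 at P33 female, above every level given so far in this paragraph. No limit was set for the noradrenergic zeros, and the direction at P16 female rests on a 0 in 1 noradrenergic cell. Ach2 cells taken alone reached 0.974 at P38 male. The log2 fold change was 2.22 (SE 0.61, adjusted p = 0.00837), from 16 counts in 6 of 16 cells against 44 counts in 41 of 193. Without the P38 male collection it was 1.45 (adjusted p = 0.392), and with libraries of at least 2 cells 2.57 (adjusted p = 0.164). The paired gene Cox7a2 was 12.4 ± 7.60 in Ach1, 13 ± 3.32 in Ach2 and 8.75 ± 3.8 to 12.7 ± 2.61 in the noradrenergic groups.

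**Figure D1:**
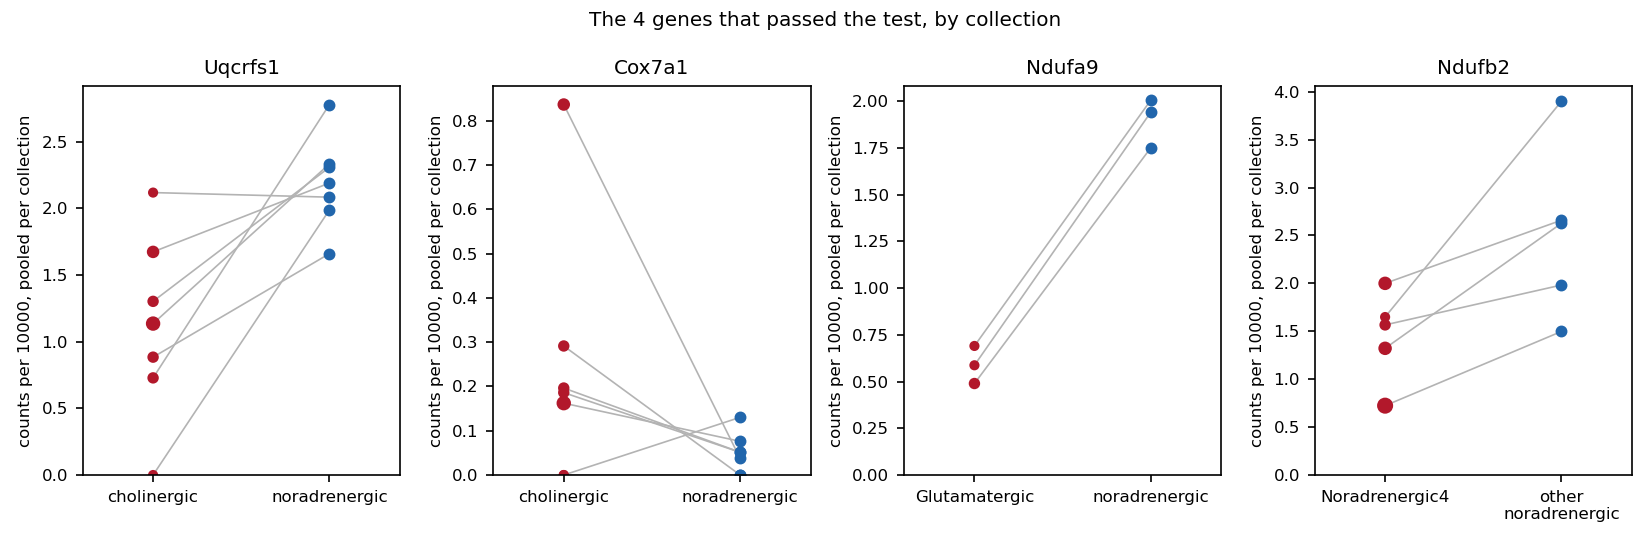
Levels (counts per 10000) of Uqcrfs1, Cox7a1, Ndufa9 and Ndufb2 on the 2 sides of the comparison each passed; lines join points of the same collection and larger points pool more cells. Ndufa9 is lower in all 3 Glutamatergic collections and Ndufb2 in all 5 Noradrenergic4 collections, while Uqcrfs1 and Cox7a1 each have a collection that goes the other way.

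With RLE size factors 4 members passed, 3 higher (Atp5g1, Cox7a1, Uqcrh) and 1 lower. The median over all genes was then -0.05 and the members' 0.20, and Atp5g1 and Uqcrh passed as well with DESeq2 and with libraries of at least 2 cells. Of 13 glial genes tested, 2 rose in the cholinergic cells (Pmp22 and Sostdc1). The 14-gene glial sum per cell ran from 4.81 to 63.2 in Ach1 (median 28.4) and 5.07 to 47.1 in Ach2 (29.8). Its medians were 4.62 to 9.36 in the noradrenergic groups, 27.1 in Glutamatergic and 25.8 in Unclassified cells. The glial gene Erbb3 was at 0 in Ach1. Of 15 stress genes, Atf3 and Ier3 rose. Their part in the results was not tested, and fewer cells of a type and less RNA per cell cannot be told apart in such sums.

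Among other genes of energy metabolism, none of 17 citric acid cycle genes, 11 carriers and channels or 79 cytosolic ribosomal protein genes passed. Of 31 assembly factors outside the name rule 1 fell, Atpaf2, which helps build the F1 part of ATP synthase: 5 counts in 4 of 16 cholinergic cells against 554 in 128 of 193 noradrenergic cells, lower in 7 of 7 collections, log2 fold change -3.03 (SE 0.56, adjusted p = 9.4e-06). Of 17 glycolysis genes 1 fell, Ldha, lactate dehydrogenase A, at 6.23 ± 2.77 (n = 7) against 8.21 ± 1.93 (n = 10), lower in 7 of 7 collections, with -0.69 (SE 0.20, adjusted p = 0.0148).

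Of 10 antioxidant and uncoupling genes, Gpx1, a glutathione peroxidase, fell, at 1.76 ± 0.998 (n = 7) against 3.92 ± 0.869 (n = 10), lower in 7 of 7 collections, with -0.91 (SE 0.22, adjusted p = 0.00148). Of 76 mitochondrial ribosomal genes 1 fell, Mrpl16. Of 13 regulators of mitochondrial biogenesis 2 rose. Gabpa, a subunit of GABP, had 13 counts in 9 of 16 cells against 45 in 40 of 193 and was higher in 5 of 7 collections, with 2.53 (SE 0.68, adjusted p = 0.00617). Ppargc1a, the coactivator PGC-1alpha, had 12 counts in 5 of 16 cells against 27 in 20 of 193. Its log2 fold change was 3.17 (SE 0.76, edgeR adjusted p = 0.00114), although it was higher in 3 and lower in 3 of 7 collections. For Atpaf2, Ldha, Gpx1, Mrpl16, Gabpa and Ppargc1a the alternative settings are not given here. These calls are therefore not shown to be firmer than those of the members.

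Glutamatergic cells, 4 cells in 3 collections whose genes include those of sensory neurons, were set against the noradrenergic mean. Here 1 of 85 members fell, Ndufa9, and 0 rose, beside 2.63% of all genes called (1.62% higher and 1.01% lower). The members' median log2 fold change was -0.50 and that of all genes -0.39, and 79 of 85 members were negative beside 7525 of all 11555. With RLE size factors these medians were -0.10 and 0.02, so the size of the members' median depends on the scaling.

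Ndufa9 is an accessory subunit on the matrix arm of complex I, at chr6:126821721-126849136. Its level in Glutamatergic cells was 0.490 at P29 male, 0.691 at P31 female and 0.587 at P33 female, against 1.75, 2.01 and 1.94 in noradrenergic cells of those collections. The groups did not overlap in these 3 collections. Means were 0.589 ± 0.101 (n = 3) and 1.89 ± 0.354 (n = 10), with a log2 fold change of -1.99 (SE 0.53, adjusted p = 0.0113). The Glutamatergic side rests on 7 counts in 3 of 4 cells, and the p-value on a spread shared by all named groups. Its level was 1.55 ± 0.496 to 2.30 ± 0.454 in the 5 noradrenergic groups and 1.82 ± 1.33 and 1.89 ± 0.421 in Ach1 and Ach2. The call was lost with RLE size factors (-1.58, adjusted p = 0.0806), with DESeq2 (-1.60, adjusted p = 0.0987), with thinned cells (-2.23, adjusted p = 0.295) and with libraries of at least 2 cells (-2.09, adjusted p = 0.290). It was also lost without P29 male (-2.03, adjusted p = 0.120), P31 female (-1.93, 0.175) or P33 female (-2.12, 0.0594), with fold changes close to that of the full data.

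The next member was Atp5e, with -1.01 (SE 0.34, adjusted p = 0.0915). By complex the medians were -0.47 in I, -0.43 in II, -0.46 in III, -0.51 in IV and -0.52 in V. Beside this, 2 of 15 stress genes rose (Btg2 and Jun) and 0 of 13 glial genes passed; the 14 glial genes summed to 14.9 to 49.7 per cell, with Erbb3 and Gja1 at 0. Of the citric acid cycle (17), glycolysis (17), assembly (31) and cytosolic ribosomal (79) genes 0 passed, and 1 of 76 mitochondrial ribosomal genes, Mrpl16, fell.

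**Figure D2:**
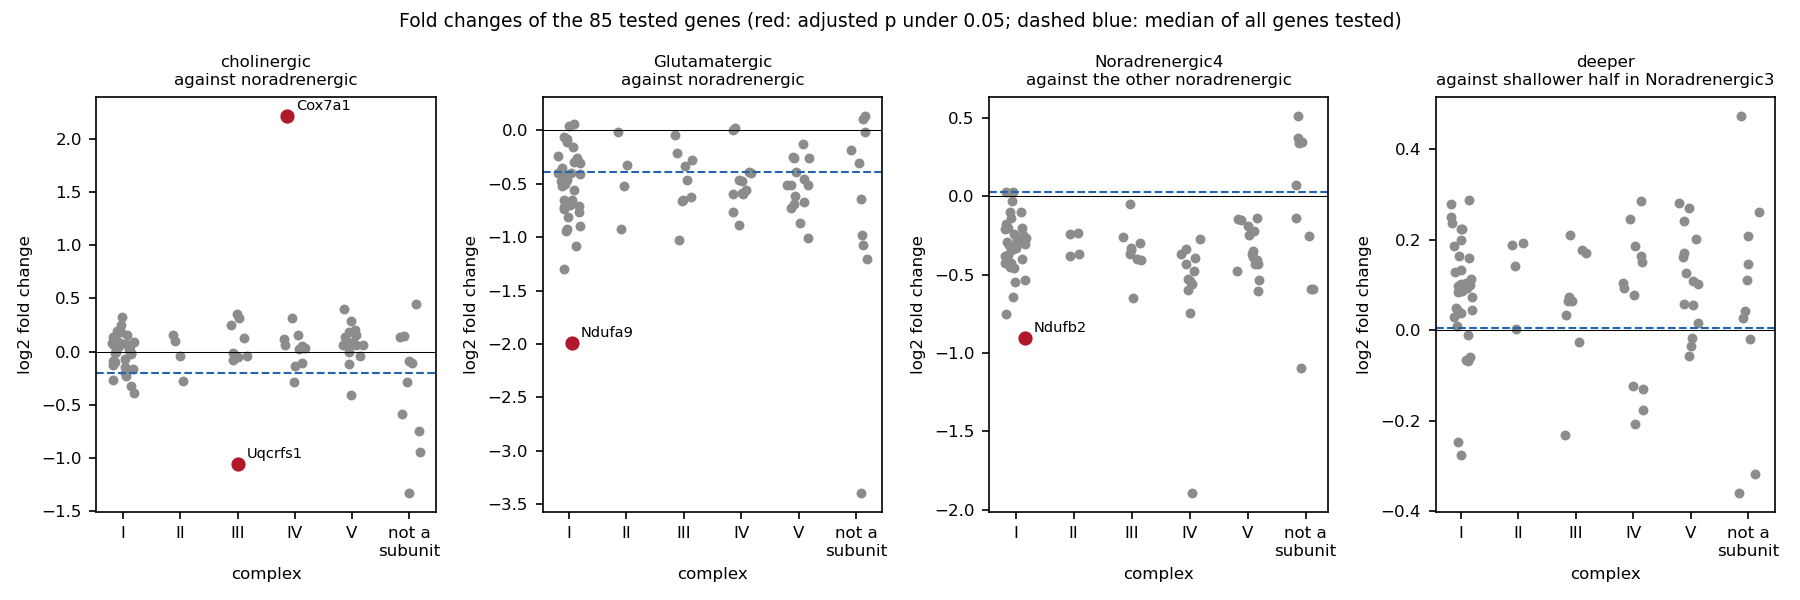
Log2 fold changes of the 85 tested members by complex in 4 comparisons (cholinergic, Glutamatergic, Noradrenergic4 and depth), red where the adjusted p was below 0.05; the dashed line is the median of all genes tested. In Noradrenergic4 the members sit mostly below that line, with a median of -0.34 beside 0.03.

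Between Ach1 and Ach2, 0 of 85 members passed, beside 0.138% of all genes. The lowest adjusted p was that of Cox8a, a small subunit of complex IV, at 7.10 ± 3.57 in Ach1 (n = 7) and 13.8 ± 1.33 in Ach2 (n = 4), with -0.96 (SE 0.31, adjusted p = 0.374). At an unadjusted p under 0.05 there were 11 members (12.9%, beside 7.41% of all genes). The members' median was -0.31 beside -0.11 over all genes. It turned to 0.28 with libraries of at least 2 cells and was -0.07 without the P30 female collection, so no direction holds.

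Among the noradrenergic groups the test for any difference found 0 of 85 members, beside 5.06% of all genes; 6 had an unadjusted p under 0.05 (7.06%, beside 12.7% of all genes), with Ndufb2 first (adjusted p = 0.105). Against the mean of the other noradrenergic groups, 0 members passed in Noradrenergic1 (1.39% of all genes did), Noradrenergic2 (1.64%), Noradrenergic3 (1.74%) and Noradrenergic5 (1.41%). Members at an unadjusted p under 0.05 numbered 2, 2, 1 and 2 in those groups (2.35%, 2.35%, 1.18% and 2.35%), beside 9.36%, 8.37%, 9.83% and 8.23% of all genes. Median log2 fold changes of members and of all genes were 0.00 and -0.15 in Noradrenergic1, 0.16 and 0.09 in Noradrenergic2, 0.13 and 0.16 in Noradrenergic3, and 0.06 and -0.03 in Noradrenergic5. In Noradrenergic1 the lowest adjusted p belonged to Ndufaf2, a complex I assembly factor, with -1.69 (adjusted p = 0.113). Ndufa4l2, too rarely counted for the main test, passed as higher there with no filter on low counts and with filterByExpr. Of its 10 counts in Noradrenergic1, 9 lay in 1 P29 male cell and 1 in a P30 male cell, and the other 3 collections were at 0.

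By median log2 fold change, members lay lowest in Noradrenergic4 among the noradrenergic groups. Here 1 of 85 fell, Ndufb2, and 0 rose, beside 1.25% of all genes called (0.952% higher and 0.303% lower). Of the 85, 78 had a negative log2 fold change, beside 5472 of all 11555. They were 12 of 12 in complex IV, 15 of 15 in complex V, 9 of 9 in complex III, 4 of 4 in complex II, 33 of 35 in complex I and 5 of 10 among the genes that are not subunits. The median was -0.34 for members and 0.03 for all genes, and by complex -0.29 in I, -0.30 in II, -0.34 in III, -0.50 in IV and -0.37 in V. The members' median stayed negative under every alternative tried, from -0.49 without P31 female to -0.16 with libraries of at least 2 cells. None of these fits left out P11 female and P30 female together, where the summed level was lowest. They therefore cannot show whether the shift holds without both. The members were counted in the same cells, so their signs are not independent of each other.

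Ndufb2, an accessory subunit in the membrane arm of complex I, lies at chr6:39592574-39603382. Its level in Noradrenergic4 cells was 1.65 at P11 female, 1.32 at P30 female, 0.724 at P31 female, 1.57 at P33 female and 2.0 at P38 male, against 3.90, 2.63, 1.5, 1.98 and 2.66 in the other noradrenergic cells. It was lower in 5 of 5 collections, although the 2 ranges overlap. Means were 1.45 ± 0.474 (n = 5) and 2.29 ± 0.857 (n = 10), with a log2 fold change of -0.91 (SE 0.25, adjusted p = 0.0286). Braf overlaps it on the other strand and Gm42420 on the same strand; the sources used here do not say whether counting used the strand.

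The Ndufb2 call was lost with voom (-0.90, adjusted p = 0.216), without the collection block (-0.79, adjusted p = 0.219) and with thinned cells (-0.94, adjusted p = 0.352). It was also lost without P11 female (-0.80, adjusted p = 0.143), P30 female (-0.85, 0.113), P31 female (-0.90, 0.134) or P38 male (-0.98, 0.132). The fold changes in these fits lay close to that of the full data, and the adjusted p moved. The next members were Ndufb4 (-0.75, adjusted p = 0.0972), Cox6a1 (-0.75, adjusted p = 0.0989) and Uqcrq (-0.65, adjusted p = 0.204). In all, 15 members had an unadjusted p under 0.05 (17.6%, beside 9.95% of all genes).

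The summed level in Noradrenergic4 did not fall in every collection. It was 270 in 1 cell at P11 female against 497 in the other noradrenergic cells, and 250.8 in 4 cells at P30 female against 378. At P31 female 7 cells stood at 422 against 385, at P33 female 2 cells at 400 against 421, and at P38 male 4 cells at 354 against 387. The log2 ratios were -0.88, -0.59, 0.13, -0.07 and -0.13, so the low values rest on P11 female and P30 female.

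All 4 P30 female cells came from 1 chip, and 3 of them were the lowest Noradrenergic4 cells, at 95.3, 97.5 and 125. Without that chip, an alternative chosen after seeing the data, the median of the members was -0.29 and 0 members passed; Ndufb2 was then -0.85 (adjusted p = 0.104). The 17 cells of that chip, these 3 included, had a median of 381; the rest ran from 226 in an Ach1 cell and 295 in a Noradrenergic1 cell to 547 in an Ach2 cell. In the same comparison 0 of 79 cytosolic ribosomal genes passed, with a median of -0.28, 0 of 17 citric acid cycle genes (-0.18), 0 of 17 glycolysis genes (-0.17), 0 of 76 mitochondrial ribosomal genes (-0.10) and 0 of 31 assembly factors (-0.04). The glial gene Pmp22 rose (1.03, adjusted p = 0.00067); the 14 glial genes had a median sum of 9.36 per Noradrenergic4 cell, with Erbb3 at 0. The part of these in the members' values was not tested.

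Across single cells, 7 of 298 had fewer than 200 counts of the 90 genes per 10000. They were 1 Ach1 cell of P30 male at 75.4, the 3 Noradrenergic4 cells above, 2 Unclassified cells of P29 male at 115 and 120, and 1 Noradrenergic3 cell of P29 male at 194. The Ach1 cell had 13927 counts in all and counts of 50 of the 90 genes. The 79 ribosomal protein genes, whose medians in the cell type groups were 286 to 357, summed to 74 in the Ach1 cell, 104, 104 and 90.3 in the Noradrenergic4 cells in the order above, 127 and 137 in the Unclassified cells and 195 in the Noradrenergic3 cell. All 7 were thus below every group median. Malat1, a nuclear long RNA with group medians of 171 to 348, was 686 in the Ach1 cell, 779, 329 and 47.9 in the Noradrenergic4 cells, 394 and 380 in the Unclassified cells and 331 in the Noradrenergic3 cell, so it was above every group median in 4 of the 7.

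Other cell markers in these cells were set against the medians of their groups, which says only on which side of the median a cell lay. The 14 glial genes summed to 63.2 in the Ach1 cell (group median 28.4), to 5.15, 53.1 and 52.6 in the Noradrenergic4 cells (9.36), to 69.1 and 42.6 in the Unclassified cells (25.8) and to 24.8 in the Noradrenergic3 cell (5.22). The stress genes summed to 48.1, then 7.73, 34.6 and 34.8, then 39.9 and 27.7, and 33.7 in the same order, against medians of 16.4, 9.42, 21.3 and 10.1. Glial and stress sums were thus above the cell's own group median in all but the Noradrenergic4 cell at 95.3. The 6 pan-neuronal genes were below the group median in all 7, at 73.2, then 117, 98 and 158, then 130 and 132, and 155, against medians of 189, 209, 189 and 204. The Ach1 cell had the highest glial and the lowest pan-neuronal sum of its group. Both Unclassified cells lay inside their group's range, which reached 77.6 for glial, 58.5 for stress and down to 127 for pan-neuronal genes. The parts of glial RNA and RNA quality were not tested.

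**Figure D3:**
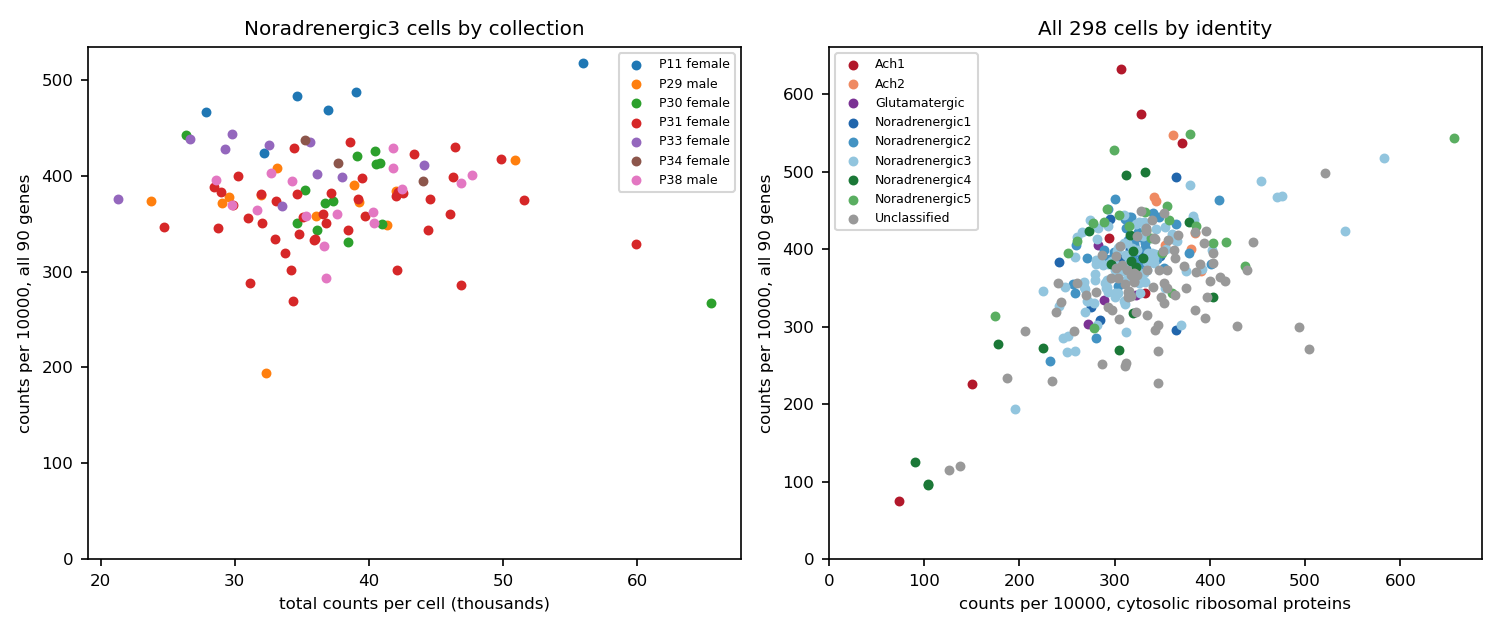
Left, summed level of the respiratory chain genes against total counts in Noradrenergic3 cells, by collection; right, the same level against that of cytosolic ribosomal protein genes in all 298 cells. Levels in Noradrenergic3 show no common slope with depth, and the lowest cells on the right are low on both axes.

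The spread over cells of the summed level was 46.8% of the mean in Ach1 and 37.2% in Noradrenergic4, and 10.5% to 15.7% in the other 6 named groups, while counting error alone gives 2.4% to 3.3%. Within Noradrenergic3, Spearman correlations across the cells of a collection (5 collections of 10 to 43 cells) between complexes had medians from 0.344 (II with III) to 0.685 (I with V). The members correlated with the ribosomal genes at -0.164 to 0.538 and with Malat1 at -0.725 to 0.358. These share the cell's total as a divisor and are given as a description.

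Against total counts per cell, the share of the 90 genes had no common direction in Noradrenergic3. It rose with the total in every other set of cells large enough to be correlated. In Noradrenergic3 the Spearman correlation of share and total was 0.280 at P29 male (12 cells), -0.192 at P30 female (13), 0.161 at P31 female (43), -0.224 at P33 female (10) and 0.174 at P38 male (16). It was 0.278 in Noradrenergic2 (18 cells) and 0.481 in Noradrenergic5 (14 cells) of P31 female, and 0.304 to 0.410 in 3 collections of Unclassified cells. Noradrenergic3 cells ordered by total into 4 bins of 25 or 26 cells had pooled levels of 379, 368, 386 and 381 from the shallowest to the deepest.

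Noradrenergic3 cells were then split at each collection's median total, and the shallower and deeper cells summed in 6 collections. The level went from 458 to 495 at P11 female, 349 to 380 at P29 male, 375 to 370 at P30 female, 350 to 372 at P31 female, 426 to 404 at P33 female and 361 to 387 at P38 male. It was higher in the deeper cells in 4 of 6 collections, with a median log2 ratio of 0.09. Complex II was higher in 6 of 6 (median 0.10), and complexes III and V in 5 of 6.

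By gene, 0 of 85 members passed between deeper and shallower cells, beside 0.0699% of 10020 genes. The median was 0.10 over members and 0.00 over all genes, 67 of 85 were positive, and 15 had an unadjusted p under 0.05 (17.6%, beside 5.91% of all genes). The lowest adjusted p was that of Atp5e, with 0.27 (SE 0.09, adjusted p = 0.446), followed by Ndufb4 at 0.28 and Cox7a2 at 0.25. Cycs, cytochrome c, which carries electrons from complex III to complex IV and lies outside the name rule, was higher in deeper cells, with 0.39 (SE 0.09, adjusted p = 0.0222); with DESeq2, and without the collection block, 0 of all genes passed.

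Male and female Noradrenergic3 cells were compared over 7 collections. Summed levels were 480 at P11, 369 at P30, 363 at P31, 413 at P33 and 413 at P34 in females, and 367 at P29 and 376 at P38 in males, so the male values lay inside the female range. Of 85 members 0 passed, beside 0.0296% of 10141 genes, and 0 had an unadjusted p under 0.05. The median was -0.17 over members, -0.27 over the 79 ribosomal genes and -0.01 over all genes. Sex cannot be told apart from age and chip here.

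Some counts could be shared with other loci. Of the 90 genes, 19 have an annotated pseudogene matching at least 95% over 200 or more bases, Atp5l the most with 8 copies, and 24 overlap a gene on the other strand and 5 a gene on the same strand. Uqcrfs1, Cox7a1, Ndufa9 and Ndufb2 have no such pseudogene.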

How the data were processed

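The authors deposited 1 table of counts per gene and cell, whole numbers with no normalization, for 298 cells; the build was mm10 per the submitters' processing notes, and aligner, counter, annotation and whether a count is a molecule are not given in the sources used here. Counts of the named cells were summed per cell type and collection into 44 libraries, and genes with at least 20 counts and a count in 3 or more libraries were tested with edgeR 4.0.16 (quasi-likelihood, TMM, Benjamini-Hochberg over all genes tested, called at adjusted p under 0.05), with cell type and collection as terms. The collection term was kept because residuals of libraries from the same collection correlated at 0.383 to 0.503 in 4 pairs, against a mean of -0.0886 in 20 pairs from different collections, over 1945 genes. Depth was compared in collections of at least 6 and sex in collections of at least 3 Noradrenergic3 cells. Levels are counts per 10000.

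The name rule that sets the members uses no values, but the choice of this gene group and of the gene lists was made with earlier results of these data known. The text names each member that passed, the 3 most counted of each complex, isoform pairs and the Sdh genes, and other pathway genes only when called; Ndufaf2, Atp5e, Ndufb4, Cox6a1, Cox7a2, Uqcrq, Cox8a, Cycs, Pmp22 and Mrpl16 were in part named after their values were seen. Alternatives were RLE scaling, no filter or filterByExpr, DESeq2 1.42.0, voom (limma 3.58.1), no collection block, chip as block, libraries of at least 2 cells, cells thinned to 10000 counts, and each collection left out. Fits were tested on simulated counts with the same dispersion for every gene and no collection effect. This does not show how they behave with the spread of the real libraries. Other software was R 4.3.3, Python 3.11.15, NumPy 2.4.6, SciPy 1.17.1, pandas 2.3.3 and BLAST+ 2.17.0. Intervals and limits from counts of 0 cover counting error only.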

Additional observations from a re-analysis of the deposited data

Results flagged for a closer look

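Of 49 sets of collections tested for a collection far from the rest, 5 held 1; chance gives about 1 in 20. In Ach2, complex III was highest at P30 female, 51.1, with the next collection at 37.6 (n = 4). In Noradrenergic2, the P29 male collection was lowest for complex I, at 116 against 133 for the next, and for all 90 genes, at 349 against 399 (n = 7). In Noradrenergic3, the P11 female collection was highest for complex III, at 42.8 against 35.7, and for complex IV, at 127 against 102.5 (n = 7). The Unclassified cells, which entered no comparison, carried the 90 genes at a mean over collections of 364 counts per 10000, from 266 to 498.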

How the results depend on the processing

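The number of members called depended on the settings, and no call reversed its direction. In the cholinergic comparison (2 called) RLE scaling gave 4, filterByExpr 1, DESeq2 5, thinned cells 0 and leaving out a collection 1 to 2. With libraries of at least 2 cells neither Uqcrfs1 nor Cox7a1 passed, while Atp5g1 and Uqcrh did, so the genes called changed there. For Glutamatergic (1) RLE, DESeq2, libraries of at least 2 cells and thinned cells gave 0, voom 3, chip as block 2 and leaving out a collection 0 to 2. For Noradrenergic4 (1) RLE gave 3, DESeq2 4, libraries of at least 2 cells 2, voom, thinned cells and the fit with no replicate block 0, the fit without 1 chip 0, and leaving out a collection 0 to 2. Noradrenergic1 (0) gave 1 with no filter, filterByExpr, voom and chip as block, 2 with libraries of at least 2 cells and 0 to 1 without a collection. Libraries of at least 2 cells gave 2 in Noradrenergic2 and 1 in Noradrenergic5, and thinned cells 1 between Ach1 and Ach2. The test for any noradrenergic difference (0) gave 1 with RLE, filterByExpr, DESeq2 and chip as block, 3 with libraries of at least 2 cells and 0 to 3 without a collection. In Noradrenergic3, sex and depth the count stayed at 0 under every alternative that could be fitted; leaving out the collection block changed the count of members by over 1.5 times in Noradrenergic4 only. Causes were not tested. Without the 5 most counted members summed levels were lower by construction: Noradrenergic5 362, Noradrenergic3 331, Noradrenergic2 333, Noradrenergic1 315, Ach2 371 and Glutamatergic 292. Cox7a1 could not be tested under filterByExpr or with thinned cells and has no adjusted p in DESeq2. Leaving out P16 gave no value for the sex comparison, which holds no P16 cell. The 4 Glutamatergic and 16 cholinergic cells limit what depth can show.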
